A study of Mus musculus with 8 samples.

Results

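Sarcolemma repair genes were followed in tibialis anterior (TA) muscle of dystrophic and wild-type mice. They were 10 genes taken by symbol from the table of 55401 genes, and all 10 had a row: the ferlins *Dysf* and *Myof*, *Trim72*, the annexins *Anxa1*, *Anxa2*, *Anxa5* and *Anxa6*, the muscle caveolar genes *Cav3* and *Cavin4*, and the scaffold gene *Ahnak*. RNA was sequenced from 4 TA muscles of *mdx5cv* mice, a model of Duchenne muscular dystrophy with a mutation in *Dmd*, and from 4 TA muscles of WT mice. Both groups were 6 mo old, were of the C57/Bl6 strain according to the labels (kept on *C57BL/6J* in the study's methods), and carried no other allele or treatment named in the labels. The labels do not give sex, and the methods state that male mice were used unless otherwise noted. The study set these groups side by side to follow gene expression in dystrophic muscle.

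A skeletal muscle fiber is torn at its membrane by contraction, and a fiber without dystrophin is torn more easily. Calcium that enters through the lesion draws dysferlin-bearing vesicles and calcium-binding annexins to the site. The E3 ligase TRIM72 (MG53) gathers there as well, and these proteins patch and cap the wound. Caveolae, the small membrane pits built by caveolins and cavins, serve as a store of membrane and of signaling proteins, and mutations in human *DYSF*, *CAV3* and *ANO5* cause muscle disease.

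Reads assigned to genes, recovered from the normalized counts, numbered 13862559 to 14921057 in WT muscles and 13175524 to 14502624 in *mdx5cv* muscles. *Dmd* itself, which checks the labels, had 6954 ± 857 normalized counts in WT and 3964 ± 388 in *mdx5cv* muscles (SD, n = 4), a log2 fold change of -0.81 (SE 0.119, limma adjusted p = 0.000177). A normalized count is the reads of a gene divided by a size factor of the muscle, which ranged from 0.873 to 0.944 in WT and from 1.06 to 1.25 in *mdx5cv* muscles. Mitochondrial transcripts held 30.03 to 38.7% of the reads assigned to genes in WT and 25.3 to 32.1% in *mdx5cv* muscles. Replicates are muscles with separate labels, and no label says whether they came from separate animals, so p-values cover the spread between these muscles. *mdx5cv* replicate 4 stood apart from the other *mdx5cv* muscles, with 22316 genes detected against 21316 as the lowest of the group. Of the *mdx5cv* muscles it also had the highest macrophage, fibroblast, regenerating fiber, slow fiber and adipocyte marker sums. Its fast fiber and endothelial sums were the lowest. The fold changes and ratios of the members that were highest in it are therefore given with and without it. For other repair genes highest in it, such as *Anxa4*, *S100a11*, *S100a10*, *Ahnak2*, *Ehd4* and *Pdcd6ip*, the fold changes are given with all muscles.

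The promoters of the members were read first for short motifs, since some of these genes changed together. Of the 10 members, 9 had an entry in the RefSeq promoter table (build GRCm38.p6), and *Anxa6* had none. The 250 bases before each start were searched on both strands for the TATA box, given as TATAAA, for the E-box bound by MyoD and myogenin, given as CANNTG, for the AP-1 site, given as TGANTCA, and for the CArG box of SRF. TATAAA was in 3 of the 9 members (*Anxa1*, *Anxa2* and *Cavin4*) and in 12.4% of all 32851 promoters. CANNTG was in 4 members (*Trim72*, *Anxa5*, *Cav3* and *Cavin4*) and in 66.2% of all promoters. TGANTCA was in 1 member (*Anxa2*) and in 6.75%, and the CArG box was in 0 members and in 1.47%. The windows of 30 bases below, 1 for each gene and motif matched, are shown because they hold these matches in annexin genes that rose and in muscle genes that did not pass the test. For *Trim72* and *Cav3*, which held more than 1 E-box, the window nearest the start is given, with the motif letters in capitals and each read 5′ to 3′ on the strand of its gene.
*Anxa1* TATA box, chr19:20390686-20390715, minus strand: cagttcatatccTATAAAatcaggagtcca
*Anxa2* TATA box, chr9:69453653-69453682, plus strand: aggatggggcgggTATAAAagccccaccca
*Anxa2* AP-1, chr9:69453577-69453606, plus strand: tccaagttggaTGAGTCAcccagcagggtg
*Anxa5* E-box, chr3:36476078-36476107, minus strand: actagcacgaaaCACTTGgaaagcagtctg
*Cavin4* E-box and TATA box, chr4:48663468-48663497, plus strand: gtatgggCACTTGtgtTATAAAtacttgac
*Cav3* E-box, chr6:112459387-112459416, plus strand: tcccttcttgggCAGCTGctcctgggagga
*Trim72* E-box, chr7:128004335-128004364, plus strand: catcctctttacCAGATGgtcaaaaccaga
A TATA match therefore stood before the RefSeq starts of *Anxa1* and *Anxa2*, which rose, and of *Cavin4*, which did not pass the test. An E-box match stood before the RefSeq starts of *Anxa5*, which rose, and of *Trim72*, *Cav3* and *Cavin4*, which did not pass. The *Anxa1* window, the *Anxa2* TATA window and the *Trim72* window lie inside the gene spans given below, whose starts differ from the RefSeq starts. These matches describe the letters of the windows and are not binding sites measured here.

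In *mdx5cv* muscle, 6 of the 10 members were higher at an adjusted p under 0.05 (*Myof*, *Anxa1*, *Anxa2*, *Anxa5*, *Ahnak* and *Dysf*), where 20.9% of the 13677 genes tested were. None of the 10 was called lower by limma, edgeR or DESeq2, where limma called 20.1% of all genes lower. At an unadjusted p under 0.05 limma gave 1 member lower, *Cav3*, which was also the only member with a log2 fold change below 0. *Myof*, *Anxa1*, *Anxa2* and *Anxa5* also had a log2 fold change of at least 1, which made 4 of 10 members against 10.3% of all genes. In 6 members every *mdx5cv* muscle was above every WT muscle, against 20.3% of all genes, and in 0 members every *mdx5cv* muscle was below, against 19.8%. The median log2 fold change of the 10 members was 0.59, and that of all genes tested was 0.00. In whole muscle, more cells of a type and more RNA per cell cannot be told apart.

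**Figure D1:**
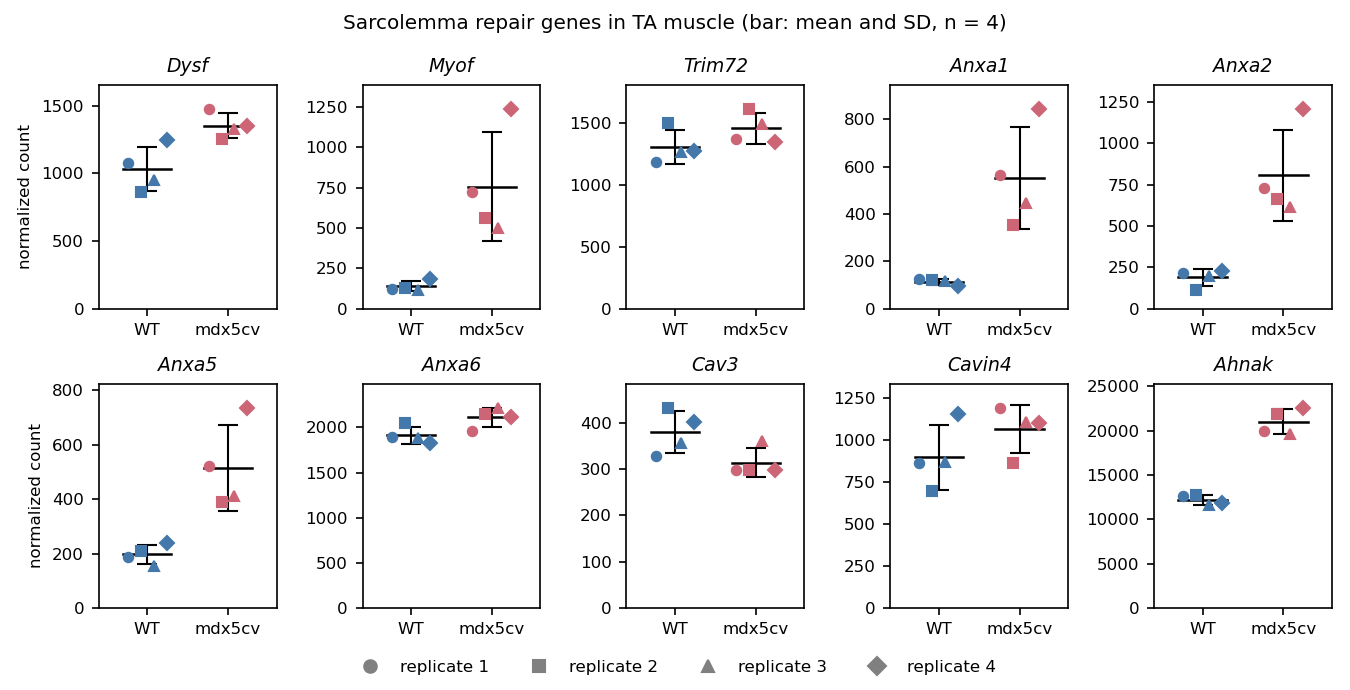
Normalized counts (vertical axes, linear and starting at 0) of the 10 sarcolemma repair genes in 4 WT (blue) and 4 *mdx5cv* (red) TA muscles, with marker shape giving the replicate and black bars the mean and SD. The groups are apart for *Dysf*, *Myof*, *Anxa1*, *Anxa2*, *Anxa5* and *Ahnak* and overlap for *Trim72*, *Anxa6*, *Cav3* and *Cavin4*.

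*Dysf* and *Myof* encode the ferlins dysferlin and myoferlin, large membrane proteins with many C2 domains that bind calcium and lipid. Dysferlin is the ferlin of the mature fiber, and myoferlin acts in myoblast fusion and is found in regenerating fibers. *Dysf* (GRCm38 chromosome 6, 84008590 to 84211060, plus strand) had normalized counts of 1075, 862, 948 and 1244 in WT replicates 1 to 4. In *mdx5cv* replicates 1 to 4 they were 1480, 1256, 1327 and 1350. The lowest *mdx5cv* muscle lay just above the highest WT muscle. The means were 1032 ± 166 and 1353 ± 93.4 (SD, n = 4), and *Dysf* rose by a log2 fold change of 0.40 (SE 0.119, 95% confidence interval 0.15 to 0.66, limma adjusted p = 0.0161). The call was lost without WT replicate 3 (0.37, adjusted p = 0.0537) and without *mdx5cv* replicate 1 (0.36, adjusted p = 0.0545).

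*Myof* (chromosome 19, 37899036 to 38043577, minus strand) had 124, 131, 117 and 183 normalized counts in WT muscles. The *mdx5cv* muscles had 724, 563, 499 and 1241. Every *mdx5cv* muscle was far above the WT range, and replicate 4 was the highest. The mean went from 139 ± 30.2 to 757 ± 336 (SD, n = 4), a 5.46-fold difference and the largest of the 10 members. On the log2 scale *Myof* rose by 2.37 (SE 0.238, 95% confidence interval 1.85 to 2.88, adjusted p = 9.9e-06). Without *mdx5cv* replicate 4 it rose by 2.10 and was still called. Within each muscle the log2 ratio of *Myof* to *Dysf* was -2.90 ± 0.191 in WT muscle and -0.93 ± 0.561 in *mdx5cv* muscle (SD, n = 4). The difference of 1.97 had p = 0.0286 in an exact two-sided permutation test over muscles, the smallest that 4 against 4 allows, and 0.0381 adjusted over the 8 ratios tested. Without *mdx5cv* replicate 4 the difference was 1.70.

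*Trim72* (chromosome 7, 128003949 to 128011033, plus strand), which nucleates the repair patch, had 1183, 1504, 1269 and 1272 normalized counts in WT muscles and 1375, 1619, 1492 and 1350 in *mdx5cv* muscles. The groups overlapped. The means were 1307 ± 138 and 1459 ± 123 (SD, n = 4), and the log2 fold change of 0.16 (SE 0.106, 95% confidence interval -0.07 to 0.39) did not pass the test (adjusted p = 0.246). Its log2 ratio to *Dysf* differed by -0.24 between the groups (exact p = 0.257, adjusted over the 8 ratios 0.257), and by -0.09 without WT replicate 2.

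The annexins are cytosolic proteins that bind acidic phospholipid when calcium rises, and they aggregate at a membrane wound. *Anxa1* (chromosome 19, 20373428 to 20390944, minus strand), whose protein also acts as an anti-inflammatory signal of leukocytes, had 125, 121, 116 and 95.3 normalized counts in WT muscles. In *mdx5cv* muscles it had 564, 354, 446 and 846. No *mdx5cv* muscle came near the WT range. The mean went from 114 ± 13.1 to 552 ± 214 (SD, n = 4), and *Anxa1* rose by 2.19 on the log2 scale (SE 0.213, 95% confidence interval 1.73 to 2.66, adjusted p = 7.7e-06).

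*Anxa2* (chromosome 9, 69453620 to 69491795, plus strand), which forms a complex with S100A10, had 218, 115, 200.1 and 228 normalized counts in WT muscles. The *mdx5cv* muscles had 732, 665, 614 and 1210. WT replicate 2 was the lowest of all muscles, and the groups did not overlap. The mean went from 190.2 ± 51.3 to 805 ± 274 (SD, n = 4), and *Anxa2* rose by 2.07 (SE 0.232, 95% confidence interval 1.57 to 2.57, adjusted p = 2.2e-05).

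*Anxa5* (chromosome 3, 36448923 to 36475894, minus strand), which assembles into lattices on exposed phosphatidylserine, had 186, 211, 154 and 237 normalized counts in WT muscles. In *mdx5cv* muscles the counts were 523, 390, 413 and 736. The lowest *mdx5cv* muscle was above the highest WT muscle. The mean went from 197 ± 35.6 to 516 ± 158 (SD, n = 4), and *Anxa5* rose by 1.36 (SE 0.191, 95% confidence interval 0.94 to 1.77, adjusted p = 0.000126).

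*Anxa6* (chromosome 11, 54979108 to 55033445, minus strand), the large annexin with a doubled core that caps the wounded fiber, had 1896, 2051, 1882 and 1832 normalized counts in WT muscles. The *mdx5cv* muscles had 1964, 2147, 2218 and 2111. The groups overlapped, and both were tight around their means of 1915 ± 94.9 and 2110 ± 107 (SD, n = 4). The log2 fold change of 0.14 (SE 0.0915, 95% confidence interval -0.06 to 0.34) did not pass the test (adjusted p = 0.243).

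*mdx5cv* replicate 4 was the highest of its group for *Myof*, *Anxa1*, *Anxa2* and *Anxa5*, and replicate 1 came next for each of these genes. Replicate 4 stood at 2.09 times the mean of the other *mdx5cv* muscles for *Myof*, 1.86 for *Anxa1*, 1.80 for *Anxa2* and 1.66 for *Anxa5*. For *Dysf* the same ratio was 0.997, for *Anxa6* 1.001 and for *Ahnak* 1.10. The macrophage gene *Cd68* (2.23), the fibroblast collagen gene *Col1a1* (1.67) and the embryonic myosin gene *Myh3* (2.77) also stood highest in replicate 4. Not every marker did. The fibroblast gene *Dcn* was highest in replicate 2 (2789.5 normalized counts, against 2536.3 in replicate 4), and the endothelial gene *Pecam1* (0.881) was lowest in replicate 4. Without this muscle the log2 fold changes were 1.96 for *Anxa1*, 1.86 for *Anxa2*, 1.17 for *Anxa5* and 0.75 for *Ahnak*, and 6 members were still called higher.

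The annexins were compared with each other within a muscle. The log2 ratio of *Anxa1* to *Anxa6* was -4.06 ± 0.142 in WT and -2.01 ± 0.566 in *mdx5cv*, that of *Anxa2* to *Anxa6* was -3.37 ± 0.522 and -1.44 ± 0.461, and that of *Anxa5* to *Anxa6* was -3.29 ± 0.273 and -2.08 ± 0.449 (SD, n = 4). The differences were 2.05, 1.93 and 1.22, each with exact p = 0.0286 and 0.0381 adjusted over the 8 ratios. Without *mdx5cv* replicate 4 they were 1.83, 1.72 and 1.03. These ratios do not depend on the scaling between muscles. Levels per kb of exon can be summed across genes, and the 12 annexin genes of the lists summed to 1115 ± 42.9 normalized counts per kb in WT muscle and 1844 ± 285 in *mdx5cv* muscle (SD, n = 4). The share of *Anxa6* in this sum was 58.6, 59.6, 59.9 and 56.3% in WT muscles and 37.6, 45.0, 44.5 and 31.9% in *mdx5cv* muscles, so the groups did not overlap. *Anxa1* made 3.52% ± 0.409 of the sum in WT and 10.05% ± 2.34 in *mdx5cv*, *Anxa2* 4.61% ± 1.33 and 11.5% ± 1.996, and *Anxa5* 9.92% ± 1.64 and 15.5% ± 2.35 (SD, n = 4). *Anxa6* was the most abundant annexin per kb of exon in every muscle. These lengths join the exons of all transcripts. For *Anxa2* the joined length was 3731 bp and the longest coding sequence 1017 bp, and for *Anxa6* they were 2930 and 2019 bp. The shares and the order of the annexins depend on this choice of length.

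**Figure D2:**
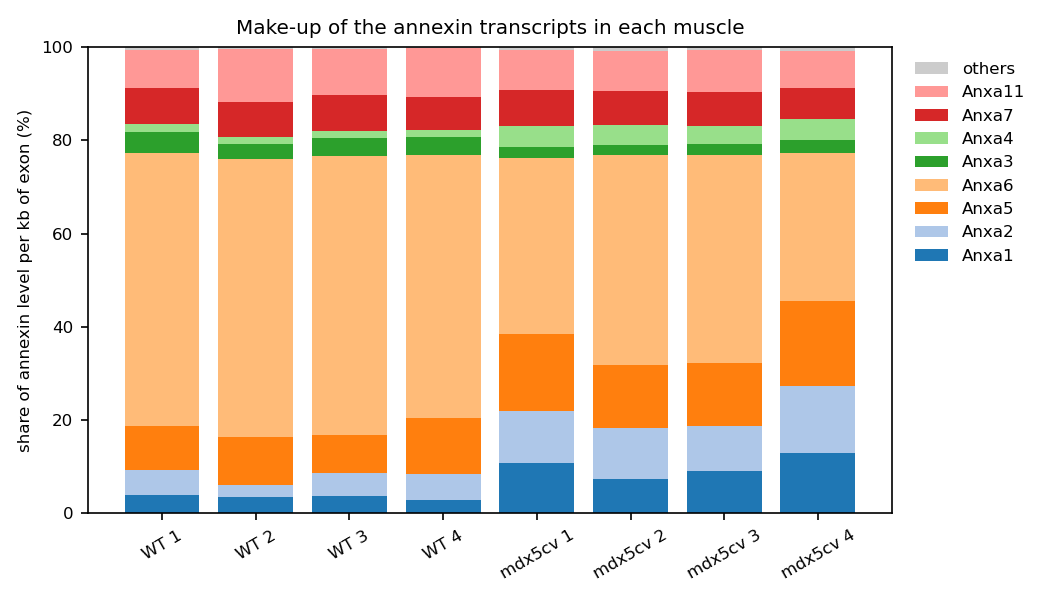
Share (%) of each annexin gene in the summed annexin level per kb of exon, stacked to 100% for each of 4 WT and 4 *mdx5cv* TA muscles, with annexins under 2% in every muscle pooled as others. The *Anxa6* segment spans 56.3 to 59.9% in WT and 31.9 to 45.0% in *mdx5cv* muscles.

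*Cav3* and *Cavin4* encode the muscle caveolin and a muscle cavin of its coat. *Cav3* (chromosome 6, 112459505 to 112472872, plus strand) had 329, 432, 356 and 400.4 normalized counts in WT muscles. In *mdx5cv* muscles it had 298, 298, 360 and 298, so 3 muscles were nearly equal and below all WT muscles while replicate 3 lay within the WT range. The means were 379 ± 45.9 and 314 ± 31.0 (SD, n = 4), and the log2 fold change of -0.27 (SE 0.119, 95% confidence interval -0.53 to -0.02) did not pass the test (adjusted p = 0.0847). Its sign and call depended on the scaling, with 0.09 (adjusted p = 0.635) on equal totals and -0.37 (adjusted p = 0.0260) on centring at the median gene.

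*Cavin4* (chromosome 4, 48663514 to 48673502, plus strand) had 863, 693, 869 and 1155 normalized counts in WT muscles and 1190, 859, 1103 and 1098 in *mdx5cv* muscles. The groups overlapped through WT replicate 4 and *mdx5cv* replicate 2. The means were 895 ± 191 and 1063 ± 142 (SD, n = 4), and the log2 fold change of 0.26 (SE 0.149, 95% confidence interval -0.06 to 0.58) did not pass the test (adjusted p = 0.181). Without WT replicate 4 it was 0.39 and was called (adjusted p = 0.0351), and without WT replicate 2 it was 0.15 (adjusted p = 0.421). The log2 ratio of *Cavin4* to *Cav3* was 1.22 ± 0.373 in WT muscle and 1.75 ± 0.220 in *mdx5cv* muscle (SD, n = 4), a difference of 0.53 that did not pass (exact p = 0.0571, adjusted 0.0653). It was 0.35 without WT replicate 2.

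*Ahnak* (chromosome 19, 8989284 to 9076914, plus strand) encodes a giant scaffold protein that binds dysferlin and the complex of annexin A2 with S100A10. It had 12649, 12739, 11587 and 11810 normalized counts in WT muscles and 19938, 21861, 19658 and 22575 in *mdx5cv* muscles. The groups were widely apart and each was tight. The mean went from 12196 ± 583 to 21008 ± 1432 (SD, n = 4), and *Ahnak* rose by 0.78 on the log2 scale (SE 0.118, 95% confidence interval 0.53 to 1.04, adjusted p = 0.000212).

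Per kb of exon, the order of the levels differed between the groups. The order within a group depends on the lengths used, which join the exons of all transcripts. In WT muscle it was *Anxa6* (654 normalized counts per kb), *Ahnak* (612), *Trim72* (585), *Cavin4* (436), *Cav3* (328), *Dysf* (124), *Anxa5* (111), *Anxa2* (51.0), *Anxa1* (39.2) and *Myof* (11.004). Among these neighbors the ranges over muscles were apart only for *Cav3* above *Dysf*, *Anxa5* above *Anxa2* and *Anxa1* above *Myof*. In *mdx5cv* muscle the order was *Ahnak* (1054), *Anxa6* (720.2), *Trim72* (653), *Cavin4* (517), *Anxa5* (290.1), *Cav3* (271), *Anxa2* (216), *Anxa1* (189.8), *Dysf* (162) and *Myof* (60.0). There the ranges were apart for *Ahnak* above *Anxa6*, *Trim72* above *Cavin4*, *Cavin4* above *Anxa5* and *Dysf* above *Myof*. *Myof* was the lowest of the members in both groups, and *Dysf* stood below *Anxa5*, *Anxa2* and *Anxa1* in *mdx5cv* means, and its range overlapped those of *Anxa1* and *Anxa2*.

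Other genes of membrane repair were counted in 6 lists of 48 genes, of which 47 had a row and 41 were tested. In *mdx5cv* muscle 13 of the 41 rose and 9 fell, beside 20.9% and 20.1% of all genes tested, with a median log2 fold change of 0.05. The falls were 2 on equal totals, 4 on equal totals without mitochondrial genes and 14 on centring at the median gene. The rises were 19, 17 and 11 under the same settings. In the list of other annexins and S100 partners 6 of 7 tested genes were called higher, with a median of 1.18. This count and median include *Anxa8*, with means of 4.99 normalized counts in WT and 17.2 in *mdx5cv* muscles. *Anxa8* passed the filter on low values only through the *mdx5cv* muscles, so it could hardly have been counted as falling. A stricter filter, applied to every muscle, dropped *Anxa8* and *S100a11* from this list. *Anxa4* rose by 2.15 (SE 0.149, adjusted p = 7.6e-07), from 81.0 ± 5.88 to 367 ± 79.5 normalized counts (SD, n = 4). *S100a11* rose by 2.11 (SE 0.490, adjusted p = 0.00402) at low counts, from 16.9 ± 11.6 to 63.0 ± 22.2. *Anxa3* had 156 ± 17.9 and 165 ± 39.8 normalized counts and did not pass the test (adjusted p = 0.804).

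*S100a10*, the partner of annexin A2, rose by 1.18 (SE 0.190, adjusted p = 0.000353), from 83.2 ± 13.4 to 193 ± 54.1 normalized counts (SD, n = 4). The log2 ratio of *Anxa2* to *S100a10* was 1.15 ± 0.654 in WT muscle and 2.04 ± 0.143 in *mdx5cv* muscle (SD, n = 4), a difference of 0.89 (exact p = 0.0286, 0.0381 adjusted over the 8 ratios). It was 0.57 without WT replicate 2, whose ratio was 0.19, and 0.85 without *mdx5cv* replicate 4.

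Among 6 tested genes of the other ferlins and dysferlin-pathway list, 1 rose and 2 fell, beside 20.9% and 20.1% of all genes tested. *Ahnak2*, a paralog of *Ahnak*, rose by 2.63 (SE 0.195, adjusted p = 1.2e-06), from 80.6 ± 23.9 to 496 ± 97.4 normalized counts (SD, n = 4). *Fer1l6*, a further ferlin, fell by 1.65 (SE 0.343, adjusted p = 0.00206), from 31.0 ± 11.1 to 8.96 ± 2.97 normalized counts. *Smpd1*, the acid sphingomyelinase that acts on the wounded membrane, fell by 0.44 (adjusted p = 0.0101), and on equal totals it was not called (-0.08, adjusted p = 0.618).

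Of the 10 genes of the caveolar coat and EH-domain list, 1 rose and 3 fell, beside 20.9% and 20.1% of all genes tested. *Cav1*, the caveolin of non-muscle cells and paralog of *Cav3*, had 1612 ± 202 normalized counts in WT muscle and 1012 ± 63.5 in *mdx5cv* muscle (SD, n = 4), and fell by 0.67 (adjusted p = 0.000331). *Cavin2* fell by 0.87 (adjusted p = 0.000343), and *Ehd4*, an ATPase of membrane necks, rose by 0.47 (adjusted p = 0.0171). On equal totals *Cavin2* was still called (-0.51, adjusted p = 0.00431) and *Cav1* (-0.31, adjusted p = 0.0526) and the third gene that fell, *Cav2* (-0.15, adjusted p = 0.413), were not. The log2 ratio of *Cav1* to *Cav3* was 2.08 ± 0.154 in WT muscle and 1.69 ± 0.161 in *mdx5cv* muscle (SD, n = 4), a difference of -0.40 (exact p = 0.0286, 0.0381 adjusted over the 8 ratios). Caveolin 1 and cavin 2 are abundant in endothelial cells, and all 5 endothelial markers fell as well, with a summed level of 2513 to 3045 normalized counts in WT and 1536 to 1968 in *mdx5cv* muscles. Their part in the fall of *Cav1* and *Cavin2* was not tested.

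The ESCRT and ALG-2 genes, whose proteins shed damaged membrane, gave 1 rise and 3 falls in 9 tested. Of all genes tested, 20.9% rose and 20.1% fell, which also applies to the 2 lists that follow. *Pdcd6ip* (ALIX) rose by 0.44 (adjusted p = 0.00461), *Vps4a* fell by 0.52 (adjusted p = 0.00211) and *Chmp2a* fell by 0.42 (adjusted p = 0.00465). On equal totals *Vps4a* (-0.16) and *Chmp2a* (-0.06) were not called. *Chmp4b*, the third gene that fell (-0.31, adjusted p = 0.0457), was not called on equal totals either (0.05). It also lost its call with TMM size factors (adjusted p = 0.0505) and with no filter on low values (0.0651). Calpains are proteases that cleave dysferlin and the cortical skeleton. Of the 4 genes of the calpain list, *Capn1* (0.33, adjusted p = 0.0253) and *Capn2* (0.30, adjusted p = 0.0329) rose. *Capn3*, the muscle calpain, fell by 0.36 (adjusted p = 0.0108), and the calpain subunit gene *Capns1* was not called (0.16, adjusted p = 0.225). The calls of *Capn1* and *Capn2* were lost on centring at the median gene (adjusted p = 0.122 and 0.126), with no variance trend (0.0559 and 0.0675), and without WT replicate 1 (0.0811 and 0.0944) or *mdx5cv* replicate 1 (0.0787 and 0.0770). *Capn1* was also not called without WT replicate 3 or *mdx5cv* replicates 2 or 3, nor *Capn2* without *mdx5cv* replicate 4 or with no filter on low values. On equal totals *Capn3* had a log2 fold change of 0.00 and was not called. Among 5 exocytic SNARE and synaptotagmin 7 genes, *Vamp2* rose by 0.81 (adjusted p = 0.000318) and *Stx4a* by 0.65 (adjusted p = 0.0175), and the other 3 were not called. *Stx4a* lost its call without WT replicate 3 (adjusted p = 0.0609) and without *mdx5cv* replicate 4 (0.0542).

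**Figure D3:**
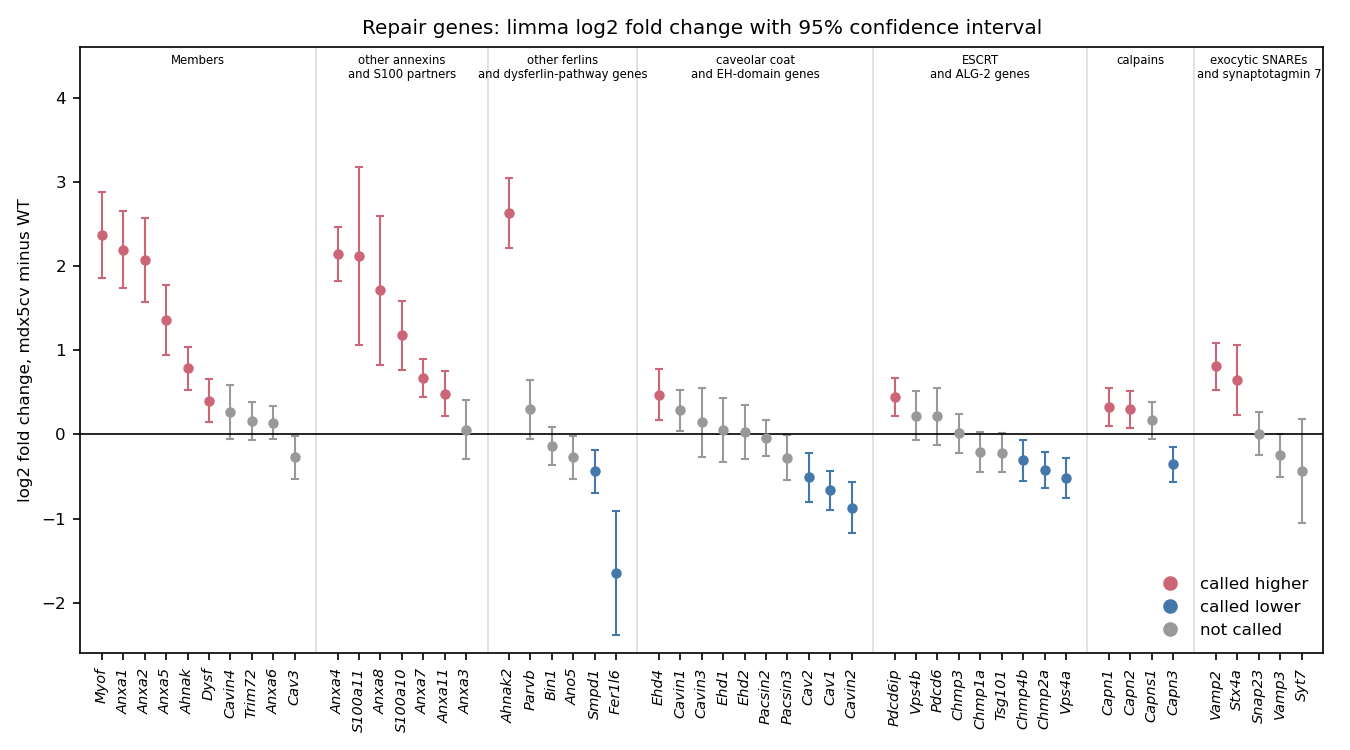
Log2 fold change (*mdx5cv* minus WT, vertical axis) with its 95% confidence interval from limma for the 10 members and the 41 tested genes of 6 other repair lists, n = 4 muscles a group. Red points were called higher, blue lower and grey were not called, and the annexin and S100 list lies almost wholly above 0 while the caveolar and ESCRT lists spread around it.

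**Figure D4:**
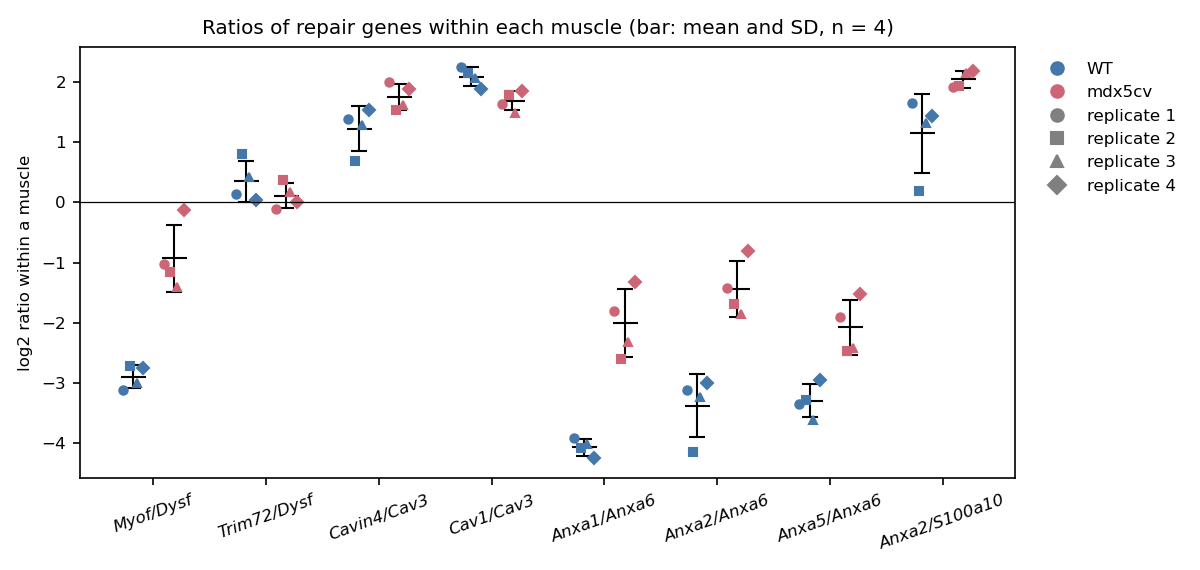
Log2 ratio of pairs of repair genes within each muscle (vertical axis) for 4 WT (blue) and 4 *mdx5cv* (red) TA muscles, with marker shape giving the replicate and black bars the mean and SD. The groups are apart for *Myof*/*Dysf*, *Cav1*/*Cav3*, the 3 annexin ratios to *Anxa6* and *Anxa2*/*S100a10*, and overlap for *Trim72*/*Dysf* and *Cavin4*/*Cav3*.

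Cell type markers were read beside the members. All 8 macrophage markers rose, with a summed level of 370 to 562 normalized counts in WT and 1980 to 4734 in *mdx5cv* muscles. None of them was at 0 in a muscle. *Itgam* and *Cd14* had WT means of 3.88 and 6.95, and passed the filter of a mean of 10 only through the *mdx5cv* muscles. Of 6 fibroblast markers 5 rose (*Dcn* did not pass the test), with sums of 6387 to 9689 and 22460 to 41026. All 6 regenerating fiber markers rose, from sums of 118 to 143 to sums of 2175 to 8502. *Mymx* was at 0 in every WT muscle, and *Mymk* and *Chrng* each had a WT mean of 0.26. *Mymx*, *Mymk* and *Chrng* passed the filter only through the *mdx5cv* muscles, so they could hardly have been counted as falling. Macrophages, fibroblasts and regenerating fibers are known to express *Anxa1*, *Anxa2* and *Anxa5*, and regenerating fibers *Myof*, and the part of these cells in the rise of the members was not tested. Fast fiber markers, the bulk of TA muscle, had sums of 1077730 to 1276490 in WT and 737622 to 1136510 in *mdx5cv* muscles, and 4 of 8 fell. Of 7 slow fiber markers 4 rose and 1 fell, and 3 of 4 adipocyte markers fell. Beside these counts, 20.9% of all genes tested rose and 20.1% fell. The adipocyte markers were at low counts, with sums of 58.4 to 464 in WT muscles, highest in replicate 4, and 14.8 to 51.9 in *mdx5cv* muscles. *Cidec* and *Lep* had *mdx5cv* means of 7.39 and 3.67, and passed the filter only through the WT muscles. Without *mdx5cv* replicate 4 the summed level in *mdx5cv* over that in WT went from 5.88 to 4.598 for macrophage markers, from 4.10 to 3.62 for fibroblast markers and from 34.6 to 24.9 for regenerating fiber markers.

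**Figure D5:**
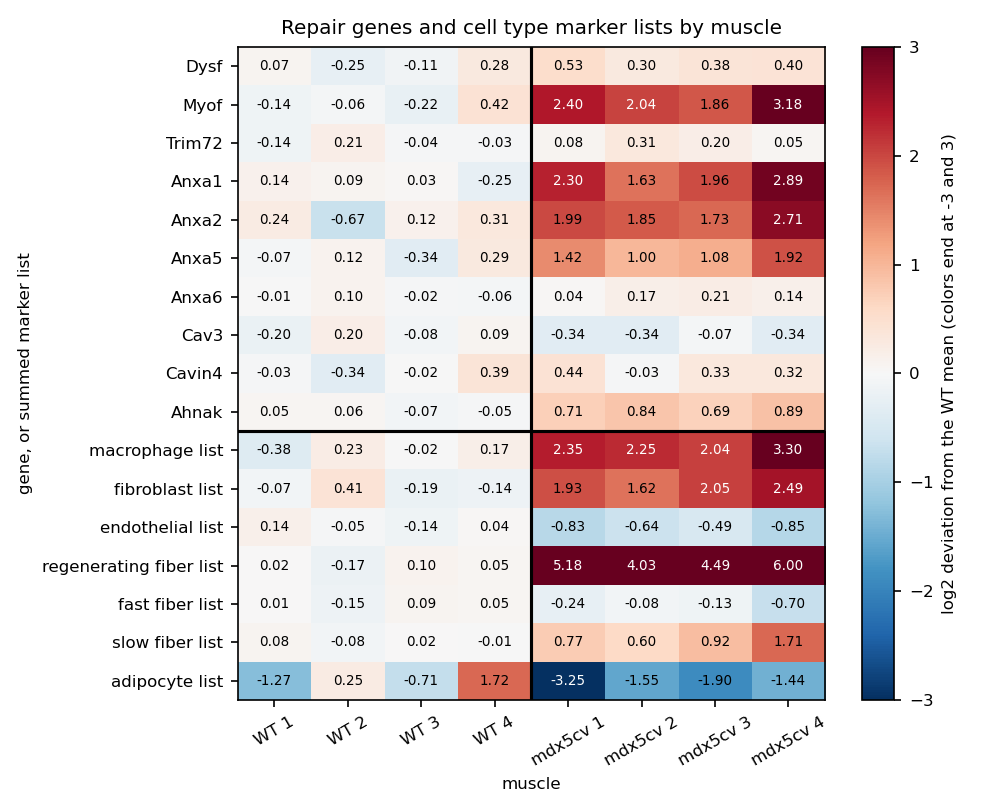
Log2 deviation from the WT mean for the 10 members and for the summed normalized counts of 7 marker lists (rows) in each of 8 muscles (columns), with the value printed in each cell and colors ending at -3 and 3. *Myof*, *Anxa1*, *Anxa2* and *Anxa5* are highest in *mdx5cv* 4 (3.18, 2.89, 2.71 and 1.92). The macrophage (3.30), fibroblast (2.49), regenerating fiber (6.00) and slow fiber (1.71) sums are highest there too, and the fast fiber (-0.70) and endothelial (-0.85) sums are lowest there.

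The scaling between muscles bore on the small changes. With equal totals in place of the size factors, the all-gene median of the log2 fold change moved to 0.36 and 5524 genes were called higher and 815 lower, against 2854 and 2743 as reported. Of the members, 9 were then called higher, with *Trim72*, *Anxa6* and *Cavin4* added. *Myof*, *Anxa1*, *Anxa2*, *Anxa5* and *Ahnak* were called higher under each of the 20 alternatives tried. Genes that overlap members in the annotation, such as *Mir3109* in *Anxa2* and *Gm7498* in *Dysf*, had at most 7.41 normalized counts in any muscle.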

How the data were processed

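Bulk RNA-seq of 4 *mdx5cv* and 4 WT TA muscles was analysed. Per the labels, RNA was extracted with Trizol, libraries were made with a stranded total RNA kit, and the submitters' processing notes list Trim Galore 0.6.4, STAR 2.6.0c, SAMtools 1.9, featureCounts, DESeq2 1.26.0 and the mm10 genome. The annotation and whether counting used the strand are not given in the sources used here. The authors deposited a signal per gene, reads divided by a size factor. Whole reads were recovered for 100% of the values (tolerance 0.001 reads). Groups come from the labels, and replicates differed by more than sampling noise.

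Normalized counts, plus 1 and as log2, were compared between groups with limma 3.58.1 (R 4.3.3), two-sided, with a mean-variance trend and no covariate. Genes averaging 10 or more normalized counts were kept (13677), and p-values were adjusted over them by the Benjamini-Hochberg method. On this scale the change of low genes is understated. Ratios were tested by exact permutation over muscles. Alternatives were other pseudocounts, filters and scalings, no variance trend, a replicate block, each replicate left out, and edgeR 4.0.16 and DESeq2 1.42.0 on recovered reads. Scripts were tested on simulated data. Members and lists were chosen with earlier results of these data known. The text names all members, up to 2 of the largest called rises and falls of each other list, *S100a10*, *Cav1* and *Dmd*. *Anxa3*, *Anxa8*, *Cav2*, *Chmp4b*, *Capns1* and the marker genes compared for replicate 4 or given for the filter were named after their values were seen. *Vamp7* had no matching row and was not analysed here. Positions are those of GENCODE M21 on GRCm38, and exon lengths are unions over transcripts.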

Additional observations from a re-analysis of the deposited data

Results flagged for a closer look

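Repair genes, ratios and summed marker lists, in 1 group each, made 84 sets of 4 muscles. A muscle was taken as apart when its gap to the nearest muscle, divided by the range of the group, was above Dixon's 95% critical value. Chance gives about 1 in 20 such sets, or 4.2, and 3 were found. *Cav3* in *mdx5cv* replicate 3 was at 8.50 on the log2 scale while the other *mdx5cv* muscles were at 8.22 to 8.23. *Ehd4* in WT replicate 4 was at 8.74, with the other WT muscles at 8.42 to 8.47. *Capn3* in WT replicate 1 was at 8.67, with the other WT muscles at 8.87 to 8.89. All 3 are values of single muscles, and their causes were not tested.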

How the results depend on the processing

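The count of members called higher was 5 to 9 over the alternatives, and the count past a log2 fold change of 1 was 4 or 5. Centring on the median gene called 1 member lower (*Cav3*), left *Dysf* uncalled (0.31, adjusted p = 0.0587) and called 14 other repair genes lower. Equal totals called 2 of these genes lower, or 4 without mitochondrial genes, against 9 as reported and reversed the sign of *Cav3* (0.0866). These settings move the median of all genes (-0.09, 0.36 and 0.22). Leaving out each replicate gave 5 to 7 members higher, 0 lower, 4 past a log2 fold change of 1, and 10 to 15 other repair genes higher and 8 to 10 lower. Muscles with the same replicate number had correlations of deviations of 0.0501, 0.0309, 0.0722 and 0.146, and other pairs had -0.148 to 0.0741. Not every muscle correlated best with its own number, so a pairing was neither established nor excluded. With the replicate block 6 members were called higher, 0 lower and 4 past a log2 fold change of 1, with 14 other repair genes higher and 9 lower. With the replicate block, an exact sign-flip test of the ratios cannot go below p = 0.125, so the differences of *Myof*/*Dysf* (1.97), *Cav1*/*Cav3* (-0.40), *Anxa1*/*Anxa6* (2.05), *Anxa2*/*Anxa6* (1.93), *Anxa5*/*Anxa6* (1.22) and *Anxa2*/*S100a10* (0.89) could not pass. Other pseudocounts, filters, edgeR and DESeq2 changed no member's call. *Fer1l6*, *S100a11* and *Anxa8* had few reads, which limits the precision of their fold changes.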
